A study of Mus musculus with 96 samples.

Results

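Control C2C12 myoblasts treated with oligomycin for 10 hr were compared with the matching DMSO-treated cells across all genes. Oligomycin inhibits the mitochondrial ATP synthase, and C2C12 is a mouse muscle precursor line that grows as myoblasts and can be turned into myotubes. The samples were chosen by their labels alone, as the 3 libraries labelled oligomycin and the 3 labelled DMSO in cells expressing luciferase, and made up 6 of the 96 samples of the series. The series as a whole profiled by RNA-seq 35 combinations of differentiation state, transgene, inhibitor and time. The cells of both groups carried a luciferase control transgene delivered by lentivirus as a stable line, driven by a doxycycline-inducible promoter, and both received 300 ng/ml doxycycline. Treated cells received 1 µM oligomycin, and the other group received DMSO, the solvent. Further groups of the same experiment were used only for contrast. These were luciferase myoblasts given 0.5 µM piericidin, an inhibitor of complex I, or 0.5 µM antimycin, an inhibitor of complex III, and myoblasts expressing LbNOX, a water-forming NADH oxidase from Lactobacillus brevis, with DMSO or with 1 µM oligomycin. Each of these groups had 3 replicates, and nothing in the labels says whether these came from separate cultures. For its estimate of the spread, the model fit also used LbNOX myoblasts given piericidin or antimycin. It further held myoblasts expressing mitoLbNOX, an LbNOX directed to mitochondria, or NDI1, a yeast protein that substitutes for complex I. The NDI1 groups had 2 replicates each.

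The ATP synthase lets protons flow back across the inner mitochondrial membrane and uses that flow to make ATP. When oligomycin blocks it, the membrane potential rises, electron transport slows and NADH is oxidised less readily. Stress in mitochondria can reach the nucleus through the integrated stress response, in which phosphorylation of the initiation factor eIF2α lowers general translation while the transcription factor ATF4 is translated more. ATF4 and its partners, such as CHOP, then act on genes of amino acid synthesis, amino acid transport and tRNA charging.

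The 6 libraries held between 9282791 and 13898633 estimated counts each, of which a single gene, CT010467.1, took 24.8% to 27.8%. Mitochondrially encoded transcripts took 2.87% to 3.6% of the counts with DMSO and 2.41% to 2.79% with oligomycin. These are shares of unscaled counts. The 13 mitochondrially encoded mRNAs described below, per 1000000 counts after TMM scaling, summed to 9438 to 11148 with DMSO and 9476 to 11034 with oligomycin. The luciferase transcript was present in every library, at 189, 182 and 192 per 1000000 counts of the library with DMSO and 89.5, 96.1 and 123 with oligomycin, and its level was lower with oligomycin (log2 fold change −0.73 ± 0.13, SE, edgeR adjusted p = 0.000285). All 9 myoblast markers passed the filter on low counts, whereas 1 of 9 myotube markers did. That one was Acta1, and the myosin heavy chains Myh2 and Myh4 had no count in any library. In counts per 1000000 after TMM scaling (CPM), the unit of all levels below, the myotube markers summed to 15.7 to 19.5 with DMSO and 21.7 to 29.3 with oligomycin, and the endothelial markers to 2.30 to 3.14 and 2.04 to 2.59. Immune markers summed to 1.09 to 1.17 with DMSO and 0.605 to 1.02 with oligomycin. Every single adipocyte, epithelial and neuronal or Schwann marker stayed at or below 0.620 CPM. The part of these low markers in the results was not tested. In bulk libraries, fewer cells of a kind and less RNA per cell cannot be told apart.

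Of 11981 genes tested, 50.8% were called different at an adjusted p under 0.05. Genes called higher with oligomycin made up 24.5% of those tested and genes called lower 26.3%, and these shares are the background for every list below. Most changes were small. The median size among called genes was 0.61 on the log2 scale, 2413 called genes moved by less than 0.5, and 295 moved at least 4-fold. Those called higher by at least 2-fold made up 5.42% of the genes tested, and those called lower by as much made up 7.19%. The median over all genes was −0.01. Scaling by library totals alone moved that median to −0.15, and the share of called genes that were higher then went from 48.3% to 34.1%. In 11 of the 36 lists the median lay within 0.1 of 0, and for each of these leaving out some single library changed its sign or moved it by more than 1.5 times, so no direction is read from them. Small list medians are read with the scaling in mind, and with the position on the plate, since all 3 DMSO libraries came from outer wells and 2 of the 3 oligomycin libraries from inner wells.

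**Figure D1:**
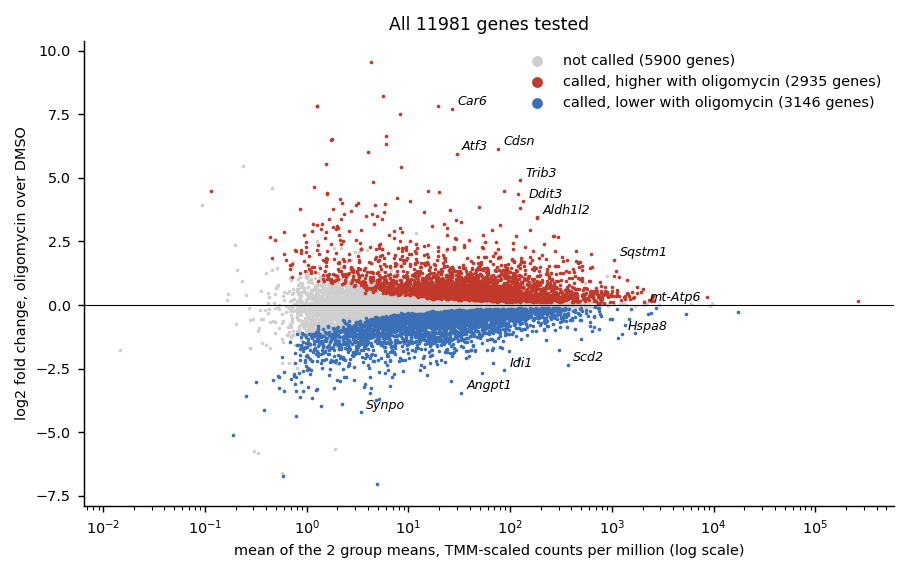
Log2 fold change of oligomycin over DMSO (vertical axis) against the mean of the 2 group means in TMM-scaled CPM (horizontal log axis) for the 11981 genes tested, 1 point per gene, with called genes coloured by direction. Called genes lie on both sides of 0 in similar number, and Atf3 and Trib3 stand among the highest while Idi1 stands well below 0.

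The regulators of the integrated stress response rose together. Of 19 tested, 14 were higher and 1 was lower, with a median log2 fold change of 1.89 against −0.01 for all genes. Atf4 (chr15:80255184-80257541, GRCm38), the central transcription factor of the response, stood at 226, 220 and 233 CPM with DMSO and 709, 707 and 723 with oligomycin. The groups did not overlap and the oligomycin libraries lay within a narrow range (log2 fold change 1.66 ± 0.03, adjusted p = 5.26e-27). Ddit3 (chr10:127290774-127296288), which encodes the transcription factor CHOP, went from 16.7, 15.0 and 13.4 CPM to 250, 259 and 251. Every oligomycin library exceeded every DMSO library by more than 10-fold (4.08 ± 0.07, adjusted p = 4.54e-28). Atf3, a further bZIP factor of the response, was close to its detection limit with DMSO at 0.620, 1.02 and 1.17 CPM and reached 61.8, 55.4 and 58.6 with oligomycin. The groups were far apart, with a wider error than that of Atf4 (5.94 ± 0.22, adjusted p = 3.59e-20). Trib3, a pseudokinase that restrains ATF4 and CHOP, went from 9.39, 7.14 and 7.53 to 240, 233 and 247 (4.91 ± 0.09, adjusted p = 2.02e-27). Ppp1r15a, the GADD34 subunit of the phosphatase that removes the phosphate from eIF2α, rose by 3.82 ± 0.10 (adjusted p = 5.33e-24), and Chac1, which degrades glutathione, by 3.13 ± 0.11 (adjusted p = 1.13e-20). Sesn2 and Nupr1, both stress-induced, rose by 2.47 and 2.49.

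The kinases at the top of the pathway behaved differently from its targets. Eif2ak2, the kinase PKR that senses double-stranded RNA, was the only regulator to fall, from 17.8, 15.5 and 17.3 to 8.04, 9.78 and 7.72 CPM (−0.98 ± 0.19, adjusted p = 8.01e-05). The genes of the other eIF2α kinases, Eif2ak1, Eif2ak3 and Eif2ak4, did not pass the test. Neither did Oma1, a protease of the inner mitochondrial membrane. The gene of its substrate DELE1, listed under the older symbol 0610009O20Rik, went from 29.2, 26.7 and 27.4 to 34.4, 37.5 and 33.9 CPM (0.35 ± 0.11, adjusted p = 0.00688), a small difference that did not pass with library totals alone (0.21).

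**Figure D2:**
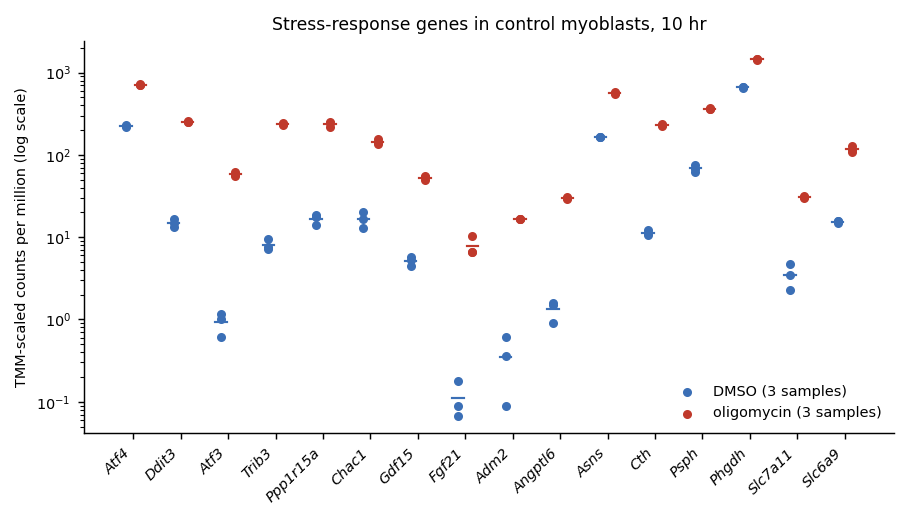
TMM-scaled CPM (log axis) of genes of the integrated stress response, secreted factors and amino acid genes in each DMSO and oligomycin library, 1 point per library with the mean as a bar, where a library at 0 is not drawn. The 2 groups are separate for every gene shown, from Atf4 at 220 to 233 against 707 to 723 to Atf3 at 0.620 to 1.17 against 55.4 to 61.8.

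Secreted factors of the stress response rose as a group. All 9 of those tested were higher, 8 of them by at least 2-fold, with a median of 2.50. The count was 7 with library totals alone, and 8 with no filter, with plate position as a covariate and without DMSO replicate 1, DMSO replicate 3 or oligomycin replicate 2. Gdf15 (chr8:70629393-70632456), a hormone that lowers appetite and a marker of mitochondrial disease, stood at 4.52, 5.71 and 5.29 CPM with DMSO and 49.5, 55.9 and 53.3 with oligomycin. The groups were about 10-fold apart with little spread inside either (3.34 ± 0.12, adjusted p = 2.32e-20). Fgf21 (chr7:45613886-45615490), a metabolic hormone also made by stressed muscle, was nearly silent with DMSO at 0.177, 0.0680 and 0.0896 and reached 6.65, 6.52 and 10.3. It remained a scarce transcript, at under 11 CPM in its highest library (6.03 ± 0.53, adjusted p = 4.68e-11). Adm2, a peptide of the calcitonin family, went from 0.0886, 0.612 and 0.358 to 16.8, 16.6 and 16.8 (5.44 ± 0.24, adjusted p = 3.97e-18). Angptl6, an angiopoietin-like protein, rose by 4.47 ± 0.24 (adjusted p = 6.37e-16), and its exons overlap those of an opposite-strand gene that this unstranded library could not separate.

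Genes that supply amino acids were higher in all their branches, with a few exceptions. In serine and one-carbon metabolism, 9 of 13 rose and 2 fell, with a median of 1.02. The whole pathway from 3-phosphoglycerate to serine was higher, with Psph at 2.41 ± 0.05, Phgdh at 1.13 ± 0.03 and Psat1 at 0.96 ± 0.04. The mitochondrial one-carbon enzymes rose too. Aldh1l2, which makes NADPH from formyl-tetrahydrofolate in mitochondria, went from 32.0, 31.4 and 30.4 to 346, 344 and 328 CPM (3.44 ± 0.07, adjusted p = 3.81e-27). Mthfd2 rose by 1.53 ± 0.05 and Shmt2 by 1.5 ± 0.05. Tyms, which makes thymidylate for DNA synthesis, was among the members that fell, at −0.56 ± 0.07.

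Among the enzymes of asparagine, proline and cysteine synthesis and the transaminases, 9 of 16 were higher and 3 lower, with a median of 1.28. Asns, asparagine synthetase, stood at 166, 165 and 163 CPM with DMSO and 561, 587 and 542 with oligomycin. All oligomycin values were more than 3-fold above all DMSO values (1.78 ± 0.05, adjusted p = 4.02e-23). Cth, which makes cysteine from cystathionine, rose by 4.35 ± 0.10 from 12.1, 10.5 and 11.1 to 222, 228 and 237. Cbs, which makes the cystathionine, was called lower (−1.11 ± 0.47, adjusted p = 0.0474), but that call was lost with DESeq2, with no filter, with plate position and on leaving out any 1 of the 6 libraries except oligomycin replicate 1 (−1.24 to −0.79 in those 5 fits). The list had 5 members called lower with library totals alone. In proline synthesis, the mitochondrial enzymes Pycr1 and Aldh18a1 rose by 2.26 ± 0.09 and 1.8. The alanine transaminase Gpt2 rose by 2.70 and the aspartate transaminase Got1 by 1.85.

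Of 15 amino acid transporters, 11 rose and 1 fell, with a median of 1.70. Slc7a11, the cystine importer, went from 2.30, 3.47 and 4.75 to 30.9, 31.4 and 29.6 CPM (3.13 ± 0.19, adjusted p = 9.74e-15). Both chains of the large neutral amino acid exchanger rose alike, Slc7a5 by 2.2 ± 0.13 and Slc3a2 by 2.14. The glycine carrier Slc6a9 rose by 2.93 ± 0.09. Slc1a3, a glutamate transporter, fell by 1.25. Cytosolic aminoacyl-tRNA synthetases, which load amino acids on tRNA, were higher in 17 of 20 cases, 13 of them by at least 2-fold, and the median was 1.25. Wars, for tryptophan, rose the most of those named, by 2.12 ± 0.06, from 94.1, 103 and 110 to 457, 431 and 443 CPM. Qars, for glutamine, was lower at −0.37, and Mars and Dars did not pass the test. The mitochondrial synthetases moved less, with 8 of 17 higher, none lower and a median of 0.37. Rars2 at 1.07 ± 0.10 and Nars2 at 1.17 ± 0.16 were the 2 members above 2-fold. Without DMSO replicate 1, 5 of the 17 were called higher and 1 lower. The median was 0.24 with library totals alone (6 higher and 2 lower) and 0.19 with plate position as a covariate (7 higher and 1 lower).

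ATF4 binds DNA with C/EBP proteins at a composite element, whose letters TTGCATCA were searched on both strands of RefSeq promoters (GRCm38.p6, 250 bases before to 50 after each start). The letters were in 279 of 27024 promoters (1.03%), and in 61 of the 9030 tested genes that had a promoter (0.676%). They were in 23 of 478 promoters of genes called higher by at least 2-fold (4.81%) and in 2 of 646 of those called lower by at least 2-fold (0.31%). Among the lists, 4 of 13 promoters of cytosolic tRNA synthetases held them (Aars, Iars, Tars and Yars), as did 3 of 16 of the regulators (Atf3, Chac1 and Nupr1). They were in 2 of 11 of the transporters and 2 of 11 of the asparagine, proline, cysteine and transaminase enzymes. None of 10 promoters of serine and one-carbon enzymes and none of 14 of mitochondrial synthetases held them. A match describes these letters and does not show a bound site. Windows around the matches are shown for strongly raised genes from different branches, 5′ to 3′ in the direction of the gene, with the element in capitals. They lie upstream of the starts of Fgf21 (chr7:45615602-45615649, minus strand), Atf3 (chr1:191183416-191183463, minus), Chac1 (chr2:119351029-119351076, plus), Slc7a11 (chr3:50443633-50443680, minus), Nupr1 (chr7:126625553-126625600, minus), Pycr1 (chr11:120643824-120643871, minus), Got1 (chr19:43524680-43524727, minus) and Aars (chr8:111033710-111033757, plus).
Fgf21: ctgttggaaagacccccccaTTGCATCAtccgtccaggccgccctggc
Atf3: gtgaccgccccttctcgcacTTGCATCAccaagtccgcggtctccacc
Chac1: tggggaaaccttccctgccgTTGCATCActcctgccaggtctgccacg
Slc7a11: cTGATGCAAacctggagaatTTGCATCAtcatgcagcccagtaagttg
Nupr1: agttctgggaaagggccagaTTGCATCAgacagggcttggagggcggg
Pycr1: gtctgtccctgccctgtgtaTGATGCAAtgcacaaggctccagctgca
Got1: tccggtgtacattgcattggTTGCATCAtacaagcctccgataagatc
Aars: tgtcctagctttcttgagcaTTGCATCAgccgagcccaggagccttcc
Slc7a11 held the element on both strands within the same window, and Pycr1 held it in the reverse orientation. The elements began between 47 and 193 bases upstream of the start in these promoters.

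Sterol genes showed the opposite direction with almost no exception. Of 26 genes of sterol synthesis and uptake, none rose and 25 fell, 20 of them by at least 2-fold, with a median of −1.30. These genes are targets of SREBP2, a membrane-bound transcription factor that is released when cellular sterol is low. Idi1, which isomerises the isoprenoid building block, stood at 152, 148 and 146 CPM with DMSO and 26.5, 25 and 23.6 with oligomycin. The DMSO libraries lay more than 5-fold above the oligomycin libraries (−2.57 ± 0.08, adjusted p = 4.07e-22). Hmgcs1, which makes HMG-CoA, went from 200, 197 and 203 to 46.3, 45.1 and 46.0 (−2.13 ± 0.07, adjusted p = 7.01e-22). Acat2, which joins acetyl-CoA units at the start of the pathway, fell by 2.26 ± 0.07 on the log2 scale, and Stard4, a carrier that moves cholesterol between membranes, by 2.75 ± 0.17. Insig1, which holds the SREBP complex in the ER, was variable with DMSO at 32.7, 86.2 and 70.3 CPM but was below all of these with oligomycin at 19.0, 13.8 and 14.5. Scap, the escort protein of SREBP, was the member that did not pass the test (0.05 ± 0.09, adjusted p = 0.700).

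Fatty acid synthesis fell in part, with 8 of 13 lower, 1 higher and a median of −0.60. Scd2, a stearoyl-CoA desaturase, dropped from 611, 597 and 634 to 121, 128 and 112 CPM, and the groups were far apart (−2.35 ± 0.05, adjusted p = 7.27e-27). The elongase Elovl6 fell by 1.76 ± 0.12 and the synthase Fasn by 0.58. Mid1ip1, which activates acetyl-CoA carboxylase, was the member that rose, at 1.00. Of 4 tested genes of cholesterol export and LXR, 2 fell, namely the exporter Abcg1 at −3.98 ± 0.59 and the receptor Nr1h2 at −0.42 ± 0.09. The sterol response element TCACCCCAC was found, on either strand, in 166 of 27024 promoters (0.614%) and in 65 of 9030 of the tested genes (0.72%). It was in 11 of 646 of the genes called lower by at least 2-fold (1.7%) and in 1 of 478 of those called higher by as much (0.209%). In the sterol list 1 of 18 promoters held it. The single match of the list was in Hmgcs1 (chr13:119690194-119690242, plus strand), shown with the element in capitals.
Hmgcs1: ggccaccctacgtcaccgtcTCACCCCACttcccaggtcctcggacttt
The exact letters are strict, and their absence from the other promoters says only that they are not in this window.

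**Figure D3:**
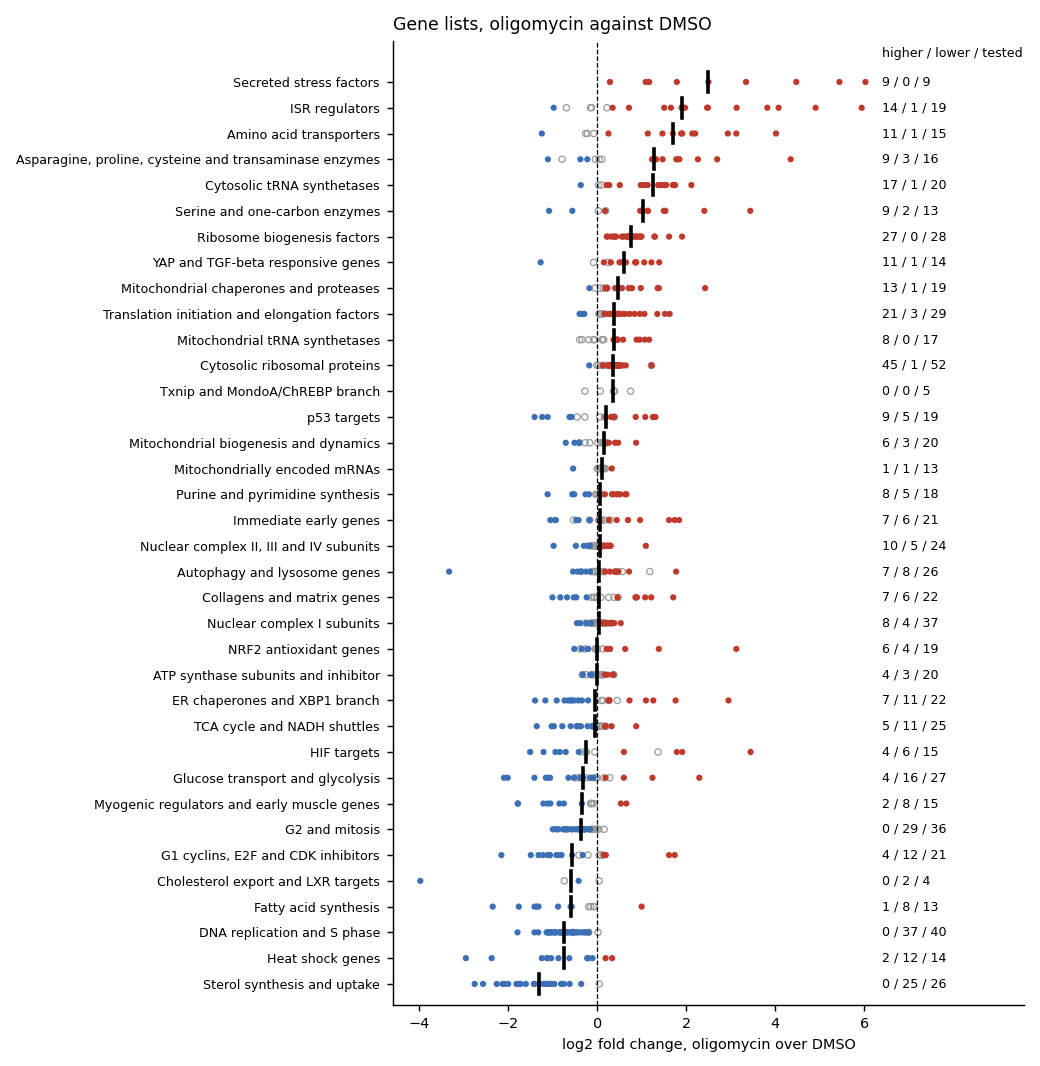
Median log2 fold change of oligomycin over DMSO for each of the 36 gene lists (horizontal axis), with the single tested members as points and the numbers of members called higher and lower beside each list. Secreted stress factors have the highest median at 2.50 and sterol genes the lowest at −1.30, while lists of respiratory chain subunits lie near 0.

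Genes of DNA replication fell broadly but by less. Of 40 tested, 37 were lower and none was higher, with a median of −0.74. Tk1, the thymidine kinase of S phase, went from 177, 183 and 189 CPM to 72.6, 75.7 and 70.4 (−1.33 ± 0.05, adjusted p = 7.97e-19). Chaf1b, which deposits histones on new DNA, fell most among those named, from 58.1, 56.0 and 58.4 to 17.7, 15.3 and 16.8 (−1.79 ± 0.08, adjusted p = 2.69e-17). Subunits of the replicative helicase fell by different amounts, from 0.28 ± 0.05 for Mcm2 to 0.93 ± 0.07 for Mcm6 and 1.02 ± 0.05 for Mcm5, and the loading factor Cdc6 fell by 1.06 ± 0.10. No oligomycin library reached the level of any DMSO library for Tk1, Chaf1b, Mcm5, Mcm6 and Cdc6. Genes of G2 and mitosis fell less again, with 29 of 36 lower, none higher, none past 2-fold and a median of −0.37. The proliferation marker Mki67, at 106, 107 and 103 against 51.8, 57.5 and 48.7 CPM, fell by 1.00 ± 0.07, just short of 2-fold.

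The regulators of G1 were mixed, with 12 of 21 lower and 4 higher (2 with library totals alone and with no filter). Ccne1, the cyclin that drives entry into S phase, fell by 1.49 ± 0.09, and E2f8, an atypical E2F repressor, by 2.15 ± 0.20. Ccnd2 rose by 1.74 ± 0.08 and Myc by 1.61 ± 0.06, although Ccnd1 and Ccnd3 fell by 0.33 and 1.06. The inhibitor Cdkn1b was lower at −0.92, and Cdkn1a was at 0.19 ± 0.05, a call that was lost with library totals alone (0.06). The E2F letters TTTCCCGC or TTTGGCGC, on either strand, were in 486 of 27024 promoters (1.8%) and in 11 of 31 promoters of the replication list (35.5%). They were in 328 of 9030 of the tested genes (3.63%), and in 23 of 646 of all genes called lower by at least 2-fold (3.56%). The match in Mcm6 nearest to its start (chr1:128359725-128359772, minus strand) and those of Mcm5 (chr8:75109340-75109387, plus) and Cdc6 (chr11:98907993-98908040, plus) are shown, with the letters in capitals.
Mcm6: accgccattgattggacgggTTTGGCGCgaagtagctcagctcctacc
Mcm5: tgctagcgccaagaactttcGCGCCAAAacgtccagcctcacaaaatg
Cdc6: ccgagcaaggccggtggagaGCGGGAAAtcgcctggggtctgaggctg
The Mcm5 and Cdc6 letters lie in the reverse orientation. No promoter held overlapping matches of any 2 of the 3 elements.

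The machinery of ribosomes and translation was higher. Of 28 ribosome biogenesis factors, 27 rose and none fell, with a median of 0.76. Nop14, of the small subunit processome, went from 46.9, 46.3 and 48.8 to 140, 145 and 150 CPM, with the groups well apart (1.61 ± 0.05, adjusted p = 3.12e-21). The nucleolar proteins Ncl and Npm1 rose by 0.99 ± 0.04 and 0.70 ± 0.03. Gar1, of the pseudouridylation complex, was the one that did not pass. Cytosolic ribosomal proteins moved little but in 1 direction, with 45 of 52 higher, 1 lower and a median of 0.37. Rpl4 went from 1630, 1562 and 1590 to 2285, 2287 and 2286 (0.52 ± 0.03), and Rpl5 was the member that fell, at −0.18 ± 0.07. That call was lost with DESeq2, with no filter and without DMSO replicate 1 or 2 (−0.18 and −0.14) or oligomycin replicate 1 or 2 (−0.18 and −0.16). With library totals alone 36 of the 52 were called higher and the median was 0.23. Many ribosomal protein genes have processed pseudogenes, with which reads can be shared. Translation factors were higher in 21 of 29 cases and lower in 3, with a median of 0.39. Those with the largest changes were parts of the initiation machinery, with Eif2b3, a subunit of the exchange factor for eIF2, at 1.63 ± 0.06, Eif3c at 1.52 ± 0.04 and Eif2s2 at 1.35 ± 0.06. The other subunits of that exchange factor did not move alike, with Eif2b5 higher at 0.43, Eif2b2 and Eif2b4 lower at −0.29 and −0.40, and Eif2b1 at 0.04 not passing the test. With library totals alone the median of the list was 0.25.

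The target of the inhibitor changed little at the RNA level. Of 20 genes for ATP synthase subunits, assembly factors and inhibitor, 4 were higher and 3 lower, none by 2-fold, with a median of −0.01. Atp5a1, the alpha subunit, stood at 765, 787 and 821 CPM with DMSO and 803, 825 and 797 with oligomycin. The groups overlapped and the difference did not pass the test (0.03 ± 0.04, adjusted p = 0.505), and with library totals alone it was −0.10 and did pass. The mitochondrially encoded mt-Atp6, a membrane subunit of the proton channel, stood at 2331, 1714 and 2176 against 2347, 1735 and 2140 (0.00 ± 0.15, adjusted p = 0.999). The genes of the c subunit, where oligomycin binds, moved in opposite directions, with Atp5g1 at 0.34 ± 0.04 and Atp5g3 at −0.33 ± 0.06. Of 37 nuclear complex I subunits, 8 rose and 4 fell, with a median of 0.03. Without oligomycin replicate 1 only 2 were called lower, without DMSO replicate 3 only 4 were called higher, and the median ran from 0.02 to 0.07 on leaving out each library. Complexes II, III and IV had 10 of 24 higher and 5 lower, with a median of 0.05. The number lower was 3 without DMSO replicate 1 or oligomycin replicate 1 or 2, and the median ran from 0.01 to 0.11. Uqcrq at 1.09 ± 0.11 and Uqcrh at −0.98 ± 0.07, both small subunits of complex III, were the extremes among these 24. The complex IV gene Cox6a2, described further below, was not in the list. Of 13 mitochondrially encoded mRNAs, mt-Nd6 was higher (0.33 ± 0.12), mt-Co3 was lower (−0.54 ± 0.06) and the other 11 did not pass. Besides mt-Nd6, 2 of those were called higher without DMSO replicate 1 (mt-Nd1 and mt-Nd4), with plate position as a covariate and with the replicate block (mt-Nd1 and mt-Nd2 in both), and without DMSO replicate 1 the median of the list went from 0.10 to 0.19. The call of mt-Nd6 was lost without DMSO replicate 2 (0.28) or 3 (0.29) and without oligomycin replicate 1 (0.30). The gene mt-Nd6 lies on the opposite strand to its neighbours, and these unstranded libraries do not show from which strand its reads came. With library totals alone the medians take the other sign for complex I, for complexes II to IV and for the mitochondrial mRNAs. In that setting 10 of the ATP synthase genes were called lower, as were 10 of complex I with 3 higher, and 8 of complexes II to IV with 5 higher.

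Mitochondrial chaperones and proteases were higher in 13 of 19 cases and lower in 1, with a median of 0.46. That member was the protease gene Yme1l1 (−0.17 ± 0.07), whose call was lost with DESeq2, with plate position and without DMSO replicate 1 or 3 or oligomycin replicate 1 or 3. Lonp1, the main matrix protease, went from 30.9, 36.4 and 32.4 to 181, 171 and 184 CPM (2.42 ± 0.11, adjusted p = 2.32e-17). The oligomycin libraries were all above 170 and the DMSO libraries all below 37. Hspa9, the matrix HSP70, rose by 1.36 ± 0.04 and its cochaperone Dnaja3 by 1.39 ± 0.06, while the chaperonin subunits Hspd1 and Hspe1 rose by 0.71 and 0.52. Cytosolic heat shock genes went the other way, with 12 of 14 lower and a median of −0.75. Hspa8, the constitutive HSP70, fell from 1791, 1730 and 1714 to 789, 818 and 782 (−1.13 ± 0.03, adjusted p = 3.02e-22). Bag3, its cochaperone, fell by 1.25 ± 0.08, whereas Hsp90aa1 was higher at 0.33. Hspa1a and Hspa1b, both lower, are near-identical copies between which reads may be split.

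The endoplasmic reticulum (ER) list was divided, with 7 of 22 higher, 11 lower and a median of −0.06, and with library totals alone 4 were higher and 11 lower. The members that rose included Ero1l, an oxidase that forms disulphides, at 2.95 ± 0.15, Herpud1, a factor of ER-associated degradation, at 1.76 ± 0.05 and the chaperone Hspa5 at 1.09 ± 0.04. Hspa5 stood at 762, 736 and 735 CPM with DMSO and 1573, 1606 and 1592 with oligomycin. The members that fell included Creld2 at −1.40 ± 0.06, Sdf2l1 at −1.17, Manf at −0.91, Pdia6 at −0.74 and Calr at −0.66. Xbp1 was uneven with DMSO, at 30.0, 89.0 and 65.8 against 95, 101 and 111 (0.73 ± 0.26, adjusted p = 0.0225). Its value was 0.40 without DMSO replicate 1 and 0.66 without oligomycin replicate 3, no longer called in either case, and 1.10 without DMSO replicate 2.

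Glucose genes fell on the whole, with 16 of 27 lower, 4 higher and a median of −0.32. Hk2, the inducible hexokinase, was the main exception, going from 18.6, 17.1 and 18 to 97.5, 85.2 and 80.2 CPM (2.29 ± 0.10, adjusted p = 9.58e-18). The glucose transporter Slc2a1 rose by 0.60 ± 0.08 and the lactate carrier Slc16a1 by 1.24. The lactate exporter Slc16a3 had the lowest value of the list, at −2.10. Pdk4, a kinase that shuts off pyruvate dehydrogenase, fell from 45.8, 42.4 and 40.5 to 11.2, 10.7 and 9.87 (−2.01 ± 0.17, adjusted p = 1.72e-11). Several core enzymes were lower by small amounts, for example Pkm by 0.32, Tpi1 by 0.34 and Ldha by 0.16. The enolase gene Eno1 was higher at 0.19 ± 0.03, a call that was lost with library totals alone (0.05). Txnip, which restrains glucose uptake, stood at 3.81, 2.52 and 3.58 against 5.18, 3.34 and 4.43, so the groups overlapped (0.39 ± 0.29, adjusted p = 0.273), and none of the 5 tested genes of its branch was called. Of 25 genes of the TCA cycle and NADH shuttles, 11 fell and 5 rose, with a median of −0.06. The aspartate-glutamate carriers of the malate-aspartate shuttle were among those lower, Slc25a12 at −1.03 ± 0.09 and Slc25a13 at −0.97 ± 0.37. The call of Slc25a13 was lost without DMSO replicate 1 (−0.93) or 3 (−0.82) and without oligomycin replicate 2 (−0.98) or 3 (−0.73). In the glycerol-phosphate shuttle Gpd1l was at −1.36 ± 0.14 and Gpd2 at −0.22. The 5 members that rose were Dld at 0.88 ± 0.06, Dlat at 0.32, Pdha1 and Pdhb at 0.18, all of the pyruvate dehydrogenase complex, and Idh3b of the TCA cycle at 0.18. The calls of Pdha1, Pdhb and Idh3b were lost with library totals alone (0.05 each), those of Pdhb and Idh3b with no filter and that of Pdha1 without oligomycin replicate 2 (0.14), and Dlat was at 0.19 without DMSO replicate 1.

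Myogenic regulators and early muscle genes were lower more often than higher. Of 15 tested, 8 fell and 2 rose, with a median of −0.35. The list also holds Id genes, so its counts are not those of muscle identity genes alone. Myod1, the master regulator of the myoblast state, went from 115, 117 and 122 to 60.8, 65.3 and 70.1 CPM (−0.85 ± 0.07, adjusted p = 6.93e-12). Id2 and Id3, inhibitors of bHLH factors such as MyoD, fell by 1.79 ± 0.09 and 1.78 ± 0.04, and Id3 went from 470, 464 and 471 to 132, 145 and 131. The members that rose were Myf5 at 0.53 and the myotube marker Acta1 at 0.65. The 9 myoblast markers summed to 6800 to 6993 CPM with DMSO and 5675 to 5805 with oligomycin, with 2 higher and 5 lower. Vim, at 4663 to 6023 CPM over all libraries, made up most of these sums. Ncam1 rose, from 1521, 2020 and 1541 unscaled counts with DMSO to 3650, 3925 and 2797 with oligomycin. The part of the myoblast markers in the other differences was not tested. Targets of YAP and TGF-beta rose in 11 of 14 cases and fell in 1, with a median of 0.60. Ankrd1, a nuclear ankyrin-repeat protein of muscle, rose by 1.06 ± 0.06 and Ctgf by 0.86 ± 0.06, while the ligand Tgfb3 was lower at −1.27 ± 0.09.

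The genes with the largest fold changes were mostly ones that were nearly silent with DMSO. Gpr141, an orphan receptor, had 1 count in all 3 DMSO libraries together, and its summed level was 422 times as high with oligomycin (95% exact interval 75.2 to 16695, for counting error only). Extl1, a glycosyltransferase of heparan sulphate synthesis, had 3 counts with DMSO and a ratio of 208 (70.6 to 1009). Car6, a secreted carbonic anhydrase, went from 0.354, 0.340 and 0 to 53.5, 49.2 and 57.2 CPM (7.72 ± 0.27, adjusted p = 1.13e-20). Avil, an actin-binding protein of the villin family, reached 39.2, 39.6 and 37.3 from below 0.36 in each DMSO library, and it shares exon bases with the opposite-strand Tsfm. Cdsn, the adhesion protein corneodesmosin, rose from 2.57, 1.63 and 2.15 to 150, 154 and 141 (6.15 ± 0.15, adjusted p = 1.24e-24). Acot2, a mitochondrial acyl-CoA thioesterase, was already expressed and went from 4.34, 9.66 and 7.89 to 174, 160 and 170 (4.50 ± 0.16, adjusted p = 2.2e-20). Elmo1, an activator of Rac signalling, rose by 6.65 ± 0.54, and Cox6a2, the heart and muscle isoform of a complex IV subunit, by 6.35 ± 0.38. For all of these genes every oligomycin library lay above every DMSO library, a separation that the naming rule requires. Gpr141, Extl1, Car6 and Avil passed the filter on low counts only through groups other than this DMSO group.

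On the other side, genes of several kinds fell strongly. Angpt1, the ligand of the TIE2 receptor, went from 63.7, 59.3 and 57.6 to 5.88, 5.02 and 5.68 CPM (−3.45 ± 0.17, adjusted p = 4.30e-17). Ctnnal1, an alpha-catenin-like protein, went from 45.4, 48.0 and 47.8 to 6.74, 6.02 and 4.77 (−3.00 ± 0.14, adjusted p = 1.17e-17). Jup, plakoglobin of cell junctions, went from 85.3, 92.4 and 93.9 to 13.0, 14.3 and 15.4 (−2.67 ± 0.13, adjusted p = 2.39e-17). The groups were separate for each of them by more than 5-fold. The vasopressin receptor Avpr1a fell by 3.74 ± 0.32 and Gprin3 by 3.70 ± 0.35. The chemokine Ccl2 and the chemokine receptor Cxcr4 fell by 2.82 ± 0.19 and 2.81 ± 0.39, the endosomal GTPase Rab7b by 3.27 ± 0.33, the synaptic gene Arc by 3.20 ± 0.33 and the neuritin gene Nrn1 by 2.69 ± 0.26. Pagr1a, part of a histone methyltransferase complex, was uneven with DMSO at 11.7, 1.43 and 16 and had 2 counts with oligomycin, a ratio of 145 in favour of DMSO (39.7 to 1198). Its exons are shared with a same-strand readthrough gene, so its level depends on how reads were divided.

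Oligomycin was set beside the inhibitors of complexes I and III to see where its response differed in size. Oligomycin was given at 1 µM and piericidin and antimycin at 0.5 µM each, and both comparisons use the same oligomycin libraries. Against piericidin, 39.2% of genes tested were called (19.2% higher and 20% lower with oligomycin), and against antimycin 50% were (23.9% higher and 26.1% lower). With library totals alone the balance tilted to higher with oligomycin, with 3129 of 4874 called genes higher against piericidin (64.2%) and 4062 of 6149 against antimycin (66.1%). Regulators and secreted factors of the stress response were lower with oligomycin more often than higher. Of 19 regulators, 6 were higher and 10 lower than with piericidin, and 3 higher and 11 lower than with antimycin, and of 9 secreted factors 1 was higher and 5 were lower in both contrasts. The amino acid branches did not follow them against antimycin. Against that inhibitor 8 of 13 serine and one-carbon enzymes were higher with oligomycin and 2 lower, as were 6 and 2 of the 16 enzymes of asparagine, proline and cysteine synthesis and transamination. Of 15 amino acid transporters 6 were higher and 6 lower than with antimycin, and of 20 cytosolic tRNA synthetases 9 were higher and 5 lower. Against piericidin the same branches had 1 higher and 6 lower, 3 and 6, 2 and 5, and 4 and 9. Atf3 stood at 61.8, 55.4 and 58.6 CPM with oligomycin, 153, 163 and 145 with piericidin and 308, 344 and 326 with antimycin. The 3 treatments did not overlap, and oligomycin was lower by 1.39 ± 0.14 and by 2.48 ± 0.14 on the log2 scale (adjusted p = 1.23e-09 and 2.72e-15). Gdf15 showed the same order, at 49.5, 55.9 and 53.3, then 148, 166 and 157, then 485, 466 and 469. Trib3 differed less, by −0.35 ± 0.07 and −0.93 ± 0.07. Fgf21 was lower by 2.27 ± 0.28 than with piericidin and by 1.91 ± 0.28 than with antimycin. Sesn2 was at −0.02 in both contrasts and did not pass the test (adjusted p = 0.871 and 0.880).

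Genes of the ER list were lower with oligomycin than with either other inhibitor. Of 22 genes, 20 were lower than with piericidin (median −0.55) and 15 lower than with antimycin (median −0.60), and none was higher in either contrast. Against DMSO, 12 were higher and 5 lower with piericidin, 11 and 6 with antimycin, and 7 and 11 with oligomycin. Dnajb9, an ER cochaperone, stood at 32.1, 33.4 and 33.8 CPM with oligomycin, 191, 202 and 187 with piericidin and 112, 118 and 119 with antimycin (−2.54 ± 0.08 and −1.81 ± 0.08, adjusted p = 2.32e-20 and 1.70e-17). Hspa5 was lower with oligomycin by 0.96 ± 0.04 and by 0.97 ± 0.04. Mitochondrially encoded mRNAs were more often higher than lower with oligomycin relative to the other inhibitors. Against piericidin 7 of 13 were higher and 1 lower (median 0.39), and against antimycin 10 and 3 (median 0.71). Against DMSO, 7 fell and none rose with piericidin (median −0.28), and 10 fell and 2 rose with antimycin (median −0.59). With oligomycin 1 rose and 1 fell against DMSO. The level of mt-Nd1 was 1.11 ± 0.09 above that with piericidin and 1.18 ± 0.09 above that with antimycin. Of 40 DNA replication genes, 22 were higher and 7 lower than with piericidin, and 17 were higher and 7 lower than with antimycin. Of 36 genes of G2 and mitosis, 9 were higher and 13 lower than with piericidin, and 22 were higher and 4 lower than with antimycin.

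Single genes differed by more. Egr1, an immediate early factor, was higher than with piericidin, at 65.8, 69.4 and 71.4 CPM against 12.3, 12.1 and 10.1 (2.58 ± 0.12, adjusted p = 1.20e-16). The protease Adamts5 and Olfml2b were higher by 2.69 ± 0.27 and 1.99 ± 0.15. The hyaluronan synthase Has1 and the lubricin gene Prg4 were lower than with piericidin by 3.01 ± 0.35 and 2.87 ± 0.33, and Pmaip1, which encodes the BH3-only protein NOXA, by 2.25 ± 0.11. Against antimycin, the activin gene Inhba stood at 91.2, 83.6 and 82.2 with oligomycin and 1277, 1246 and 1222 with antimycin (−3.86 ± 0.07, adjusted p = 1.70e-27). The nuclear receptor Nr4a1 was lower than with antimycin by 4.48 ± 0.21, Lmcd1 by 4.81 ± 0.28, Csrnp1 by 3.90 ± 0.16 and the chemokine Cxcl10 by 3.96 ± 0.50. Ung, a uracil-DNA glycosylase, was higher than with antimycin by 3.73 ± 0.26, as were Avil by 3.20 ± 0.28, Gpr141 by 2.93 ± 0.38, Dennd2d by 2.84 ± 0.48 and Tfcp2l1 by 2.79 ± 0.45. YAP and TGF-beta targets were lower than with antimycin in 12 of 14 cases (median −0.91), with Ctgf at −2.94 ± 0.07.

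**Figure D4:**
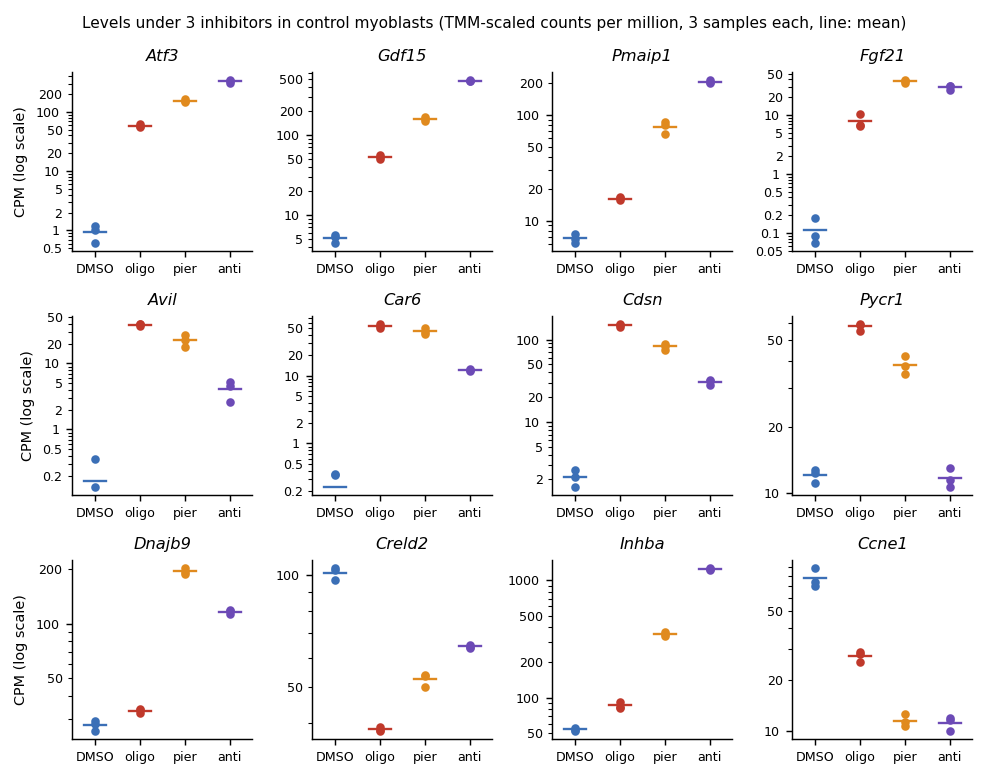
TMM-scaled CPM (log axis) of selected genes in each library of luciferase myoblasts given DMSO, oligomycin, piericidin or antimycin, 1 point per library with the mean as a line, where a library at 0 is not drawn. Atf3 and Gdf15 step up from oligomycin through piericidin to antimycin, and Dnajb9 is highest with piericidin (187 to 202) and lies near its DMSO level with oligomycin (32.1 to 33.8 against 25.9 to 29.2).

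LbNOX oxidises NADH in the cytosol. The LbNOX and luciferase myoblasts are separate lines, so an effect of LbNOX cannot be told apart from other differences between the lines. A dependence of the response on the cytosolic NADH/NAD+ ratio was not tested. In LbNOX myoblasts 4220 genes were called between oligomycin and DMSO. The response itself differed between the 2 lines, by an interaction term, for 7.98% of the genes tested, 3.8% with a more positive and 4.18% with a more negative value in LbNOX cells. These were 956 genes, 455 and 501 in the 2 directions, and since the interaction uses the same control libraries as the response in control cells, the share of them with a smaller response in LbNOX cells is not given. By count, DNA replication genes had the most members in 1 direction, with 21 of 40 falling less in LbNOX cells and none falling more. By share, the YAP and TGF-beta targets given below had more. For sterol genes 5 of 26 fell less, and for heat shock genes 6 of 14 had a more positive response. On the other side, 6 of 19 stress response regulators, 10 of 28 ribosome biogenesis factors, 8 of 29 translation factors and 9 of 14 YAP and TGF-beta targets had a more negative response.

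Atf3 stood at 0.746, 1.54 and 0.730 CPM in LbNOX cells with DMSO and 16.1, 11.8 and 15.2 with oligomycin. It still rose, by 3.76 ± 0.23, but by 2.19 ± 0.40 less than in control cells (adjusted p = 0.000408). Ddit3 went from 13.3, 14.1 and 13.7 to 122, 127 and 127, a rise of 3.19 ± 0.07 that was 0.89 ± 0.09 smaller on the log2 scale. Atf4 differed by −0.18 ± 0.04 (adjusted p = 0.0116) and Trib3 by −0.26 ± 0.13 (adjusted p = 0.239). The estimates for Atf3, Ddit3, Atf4 and Trib3 were of different size, but differences between genes were not tested. Idi1 fell in LbNOX cells as well, from 149, 139 and 140 to 41.6, 40.2 and 44.0, by 0.80 ± 0.11 less than in control cells (adjusted p = 4.66e-06).

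**Figure D5:**
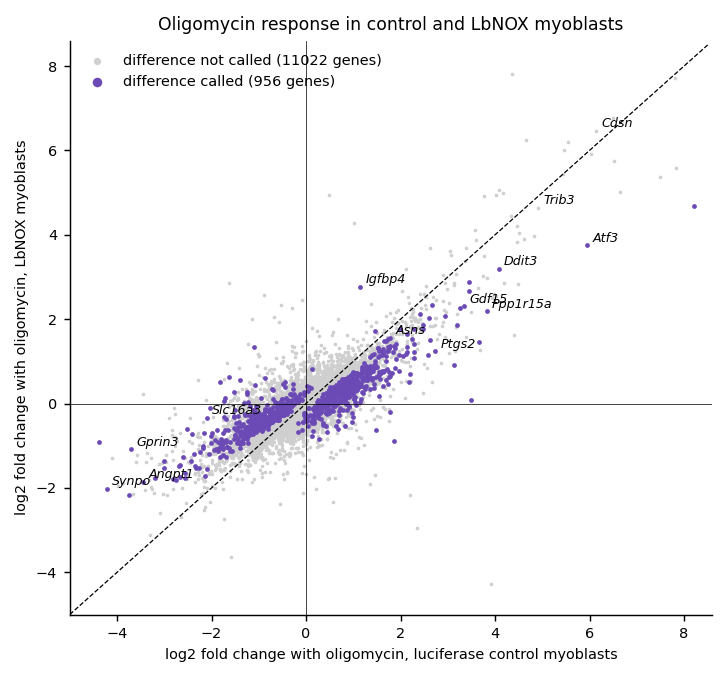
Log2 fold change of oligomycin over DMSO in LbNOX myoblasts (vertical axis) against that in control myoblasts (horizontal axis), 1 point per gene tested, with the 956 genes of different response coloured and a line of equal response. Coloured genes lie on both sides of the line, and Atf3 is at 5.94 in control and 3.76 in LbNOX cells.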

How the data were processed

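Total RNA of myoblasts had been made into Smart-seq2 libraries from polyadenylated RNA, without strand information, and sequenced as 37-base paired reads on 2 flow cells. The authors pseudo-aligned the reads with kallisto 0.44 with bias correction to the Ensembl 93 transcriptome (GRCm38.p6) plus 4 transgenes, after bcl2fastq 2.20.0.422, and deposited estimated counts per gene, summed over the flow cells and not normalised. Here these were rounded to whole numbers and fitted with edgeR 4.0.16 (R 4.3.3, limma 3.58.1), with TMM scaling and a quasi-likelihood F test, on all 37 myoblast samples treated for 10 hr, with 1 coefficient per group. A gene was kept if some group had 16 or more counts in all of its replicates, the authors' own threshold. P-values were adjusted by Benjamini-Hochberg over the 11981 genes tested and called under 0.05. Errors are SEs on the log2 scale, taken as the absolute log2 ratio over the root of F, and levels are TMM-scaled CPM. P-values measure only the spread between these samples, which may be technical. Intervals and low counts cover counting error only.

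Python 3.11.15 with pandas 2.3.3 and numpy 2.4.6 summarised the fits, and DESeq2 1.42.0 was an alternative. The test was checked on simulated data. The members and the 36 lists were chosen with earlier results of these data known. The gene of DELE1 was matched by its RefSeq synonym after the symbol first entered for it proved to be that of another gene. Genes were named by rule: called, averaging 50 counts or more, replicates not overlapping (not required for the interaction) and an ordinary symbol, the 12 with the largest changes in each direction against DMSO and 5 in each direction for the other contrasts, up to 4 called members of each list, and a fixed set called or not. Some genes that the rule names are not reported here. Further list members were named after their values were seen, as examples or exceptions. Coordinates and exon overlaps are from GENCODE M21 (GRCm38), by which 63 of the 185 named genes share exon bases with another gene. Sequences are from RefSeq, where 9030 tested genes matched a promoter by symbol or gene ID. The alternatives were other scalings, no filter, fits of the compared groups only, plate position as a covariate, the replicate number as a block, and leaving out each replicate.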

Additional observations from a re-analysis of the deposited data

Results flagged for a closer look

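The oligomycin response differed between LbNOX and control myoblasts for 956 genes by the interaction term of the edgeR fit, and the 10 genes named by rule are given here as the response in LbNOX cells minus that in control cells on the log2 scale. Atf3 differed by −2.19 ± 0.40. Ppp1r15a went from 20.4, 22.5 and 17.4 to 93.4, 90.7 and 91.3 CPM in LbNOX cells and from 14.1, 18.4 and 17.4 to 242, 219 and 247 in control cells, a difference of −1.64 ± 0.13 (adjusted p = 4.12e-10). Ptgs2, the inducible cyclooxygenase, rose in both lines but less in LbNOX cells, where it went from 89.0, 85.0 and 73.2 to 209, 176 and 196 (−1.49 ± 0.10, adjusted p = 7.34e-12). The receptor gene Gpr176 and the S100 gene S100a7a also rose less, with differences of −1.51 ± 0.21 and −1.67 ± 0.27.

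Angpt1 fell in LbNOX cells from 49.7, 50.8 and 44.2 to 15.2, 13.5 and 11.5 CPM, a smaller fall than in control cells (difference 1.60 ± 0.22, adjusted p = 1.25e-05). Gprin3 and Synpo, an actin-associated protein, fell less as well, with differences of 2.62 ± 0.47 and 2.2 ± 0.49. The lactate exporter Slc16a3 fell in control cells and did not pass the test in LbNOX cells (−0.34 ± 0.20, adjusted p = 0.196), and the responses differed by 1.76 ± 0.33. Igfbp4, a binding protein of insulin-like growth factors, rose more in LbNOX cells, from 0.497, 0.864 and 1.46 to 7.12, 5.68 and 6.28, and from 4.43, 6.66 and 5.56 to 13.8, 11.2 and 11.8 in control cells. The LbNOX line thus started lower than the control line, and the difference of 1.63 ± 0.43 (adjusted p = 0.0157) lost its call without replicate 1 of LbNOX cells with DMSO (adjusted p = 0.066).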

How the results depend on the processing

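All 58 counts of called genes under the alternatives stayed within 1.5 times the values above. For oligomycin against DMSO they ran from 5515 to 5645 on leaving out each replicate, and were 5939 with the DESeq2 Wald test, 5618 with no filter and 5942 with plate position as a covariate. With library totals alone 6301 were called, and 29 of the 36 list medians moved by more than their spread over replicates, as did 9 with plate position as a covariate, 2 with only the groups compared, 7, 5 and 2 without DMSO replicates 1, 2 and 3, and 3, 1 and 5 without oligomycin replicates 1, 2 and 3. The tally of 2853 values under alternatives covers the genes named by rule, without the list members named later as examples. Of these values 2789 kept their direction and call. Those that changed sign were of genes near 0. Atp5a1 was −0.10 with library totals alone. For mt-Atp6 the values were −0.13 with library totals alone, −0.016 with no filter, and −0.12 to 0.11 on leaving out each replicate (below 0 without DMSO replicate 2 and without oligomycin replicate 1 or 3). For Nr4a1 they were −0.10 with library totals alone and −0.16 to 0.26 on leaving out each replicate (below 0 without DMSO replicate 2 or 3 and without oligomycin replicate 2). Has1 ranged from −0.56 to 0.19 on leaving out each replicate, and was above 0 without DMSO replicate 1. With no filter 4 of the complex I genes were called higher and 4 of the autophagy genes lower, and with plate position 8 of the TCA and shuttle genes were higher (2 with library totals alone). Calls were lost under some alternatives for Dnajb9, Yars2, mt-Nd6, Slc25a13, Afg3l2, Xbp1 and Rpl5 among others. The cause was not tested. Samples that share a replicate number did not deviate together (correlations 0.0999, −0.0802 and −0.0214), so the numbers were not taken as pairs, and with the replicate block 6172 genes were called. Genes that reached 16 counts in all replicates of no group were not tested, so scarce transcripts may differ unseen.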

Other observations

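Several further lists had members called in both directions with oligomycin. Over all genes tested, 24.5% were called higher and 26.3% lower. The counts of some of these lists lie near those shares, among them the NRF2, autophagy, immediate early and collagen lists. Nothing about those lists is read from their counts. Of 15 tested HIF targets, 4 rose and 6 fell, with a median of −0.25. That median was −0.39 without DMSO replicate 1, −0.42 without oligomycin replicate 1, −0.12 without oligomycin replicate 3 and −0.38 with library totals alone. Ndrg1, a stress-induced growth regulator, went from 26.0, 32.8 and 32.6 to 330, 335 and 333 CPM, and the groups were about 10-fold apart (3.45 ± 0.07, adjusted p = 2.76e-27). Vegfa and Ddit4, an inhibitor of mTORC1, rose by 1.79 ± 0.19 and 1.91 ± 0.35, while Egln3, the prolyl hydroxylase PHD3, fell by 1.51 ± 0.19 and the mitophagy receptor Bnip3 by 0.71 ± 0.14. Of 19 NRF2 antioxidant genes, 6 rose and 4 fell, with a median of −0.01. Hmox1, heme oxygenase, rose by 1.38 ± 0.07 and Txnrd1 by 0.63 ± 0.17 (0.40 with plate position as a covariate). G6pdx, the entry to the pentose phosphate pathway, fell by 0.52 ± 0.06. Among 19 p53 targets, 9 rose and 5 fell, with a median of 0.19, and the extremes were Rrm2b at 1.31 ± 0.16 and Sesn1 at −1.41 ± 0.19.

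Of 26 autophagy and lysosome genes, 7 rose and 8 fell, with a median of 0.04. Sqstm1, the autophagy receptor p62, went from 458, 491 and 486 to 1666, 1633 and 1603 CPM (1.77 ± 0.03, adjusted p = 9.71e-28). Tfeb, a regulator of lysosomal genes, was scarce and fell from 2.66, 2.38 and 1.79 to 0.346, 0.0836 and 0.227 (−3.33 ± 0.52, adjusted p = 3.31e-06). Of 21 immediate early genes, 7 rose and 6 fell, with a median of 0.07, among them Klf4 at 1.84 ± 0.18 and Egr1 at −0.42 ± 0.10. Of 22 collagens and matrix genes, 7 rose and 6 fell, with a median of 0.04. Timp3, an inhibitor of matrix proteases, rose from 229, 217 and 232 to 755, 740 and 720 (1.71 ± 0.04), and Thbs1 fell from 863, 834 and 840 to 436, 428 and 398 (−1.01 ± 0.04). Among 18 genes of purine and pyrimidine synthesis, 8 rose and 5 fell, with a median of 0.07, and Adss at 0.66 ± 0.06 and Ctps2 at −1.12 ± 0.11 were the extremes. Of 20 genes of mitochondrial biogenesis and dynamics, 6 rose and 3 fell, with a median of 0.16, led by Pprc1 at 0.87 ± 0.19. Without oligomycin replicate 1, 3 of the immediate early genes were called lower, and the median of that list ran from 0.00 without that library to 0.21 without DMSO replicate 2. The medians of the autophagy, collagen and purine and pyrimidine lists also moved by more than 1.5 times on leaving out single libraries, and that of the NRF2 list lay on either side of 0. With library totals alone 9 of the NRF2 genes were called lower and 3 of the biogenesis genes higher, the medians of the p53 and biogenesis lists were 0.06 and 0.03, and the medians of the immediate early, purine and pyrimidine, autophagy and collagen lists were below 0.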
